A study of Mus musculus with 16 samples.

Results

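The transcripts described here are those of 10 alpha and beta tubulin genes, Tuba1a, Tuba1b, Tuba1c, Tuba4a, Tuba8, Tubb2a, Tubb2b, Tubb4b, Tubb5 and Tubb6, in ventricular cardiomyocytes of mice with and without the G protein-coupled estrogen receptor GPER. A probe set was taken as a member where the platform annotation gives it 1 of these symbols and no other gene. That gave 13 of the 45141 probe sets on the array, for 8 of the 10 genes. Tuba4a and Tubb2b had no such probe set and are not analysed here. Every one of the 13 probe sets is reported.

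RNA came from hearts of 16 mice, with 1 Affymetrix GeneAtlas MG-430 PM array per mouse. The 4 groups, each of 4 mice, were GPER KO females, intact females, GPER KO males and intact males, where GPER KO is labelled a GPER knockout and intact is labelled wild type. The labels give an age of 15 weeks for all mice and name no drug treatment. The methods text gives an older age, and the sources used here do not settle which holds. The study describes the deletion as specific to cardiomyocytes, and the driver that restricts it is not given in the sources used here. Cells were freed with collagenase, strained and spun at low speed, without a sort. Values are log2 values per probe set as deposited, made with RMA, which puts all arrays on one scale. A difference is the mean of GPER KO mice less that of intact mice of the same sex, unless other groups are named, so a difference of 1 on this scale is a doubling. In such bulk RNA, fewer cells of a type and less RNA per cell cannot be told apart.

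Microtubules are hollow polymers of heterodimers, each of 1 alpha and 1 beta tubulin. Cells hold several genes for each subunit, with protein sequences that are nearly alike except at the C-terminal tail, where enzymes remove or restore tyrosine and add glutamates. In cardiac muscle the microtubules run between the sarcomeres, carry cargo, and resist shortening and stretch, and a denser or more detyrosinated network is known from overloaded and failing hearts. Free tubulin dimers also lower the stability of tubulin mRNAs during translation, a feedback known as tubulin autoregulation.

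The arrays were alike as a whole, with medians of 3.47 to 3.51 and correlations of 0.983 to 0.997 between any pair. The 9 measured cardiomyocyte markers, such as Tnnt2, Myl2 and Actn2, had mean log2 values of 12.1 to 12.3 on every array. Gper1, the deleted gene, has 1 probe set, at 2.64 to 3.11 over all arrays, near the low end of the scale. Its female difference was -0.08 (adjusted p = 0.787) and its male difference 0.01 (adjusted p = 0.988). Where it lies relative to the deleted part was not determined, so Gper1 does not check the genotype labels.

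Affymetrix marks each probe set by its ending. A set ending in _at was designed to match 1 transcript, _a_at matches several transcripts of a gene, _s_at can match transcripts of related genes, and _x_at holds some probes that can match other sequences. The sets of Tuba1a and Tuba1b, 1 of the Tuba1c sets and the brighter Tubb2a set are of the last kinds. The coding sequences of tubulin genes are near copies of each other, so these values can include signal from related tubulins. Because probe sets differ in brightness, levels are not compared between genes.

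Tuba1a, Tuba1b and Tuba1c lie close to each other on chromosome 15, and the other genes shown here lie apart. The 250 bases before the annotated start are shown for 4 members. Tuba1b and Tubb2a were called, Tubb4b is a beta tubulin with a positive male difference, and Tuba8 had the lowest unadjusted p in females. Tubb5 and Tubb6 also had a positive male difference on their brighter sets, and their windows are not shown. Sequences are from RefSeq, build GRCm38.p6, written 5′ to 3′ on the strand of the gene. Capitals mark the motif CCAAT, the GC box letters GGGCGG and the TATA box letters TATAAA, on either strand, so that some appear as their reverse complement. The motifs overlap nowhere in these 4 windows. The positions are chr15:98934391-98934640 on the minus strand for Tuba1b, chr6:121210484-121210733 on the plus strand for Tuba8, chr13:34078009-34078258 on the minus strand for Tubb2a, and chr2:25224703-25224952 on the minus strand for Tubb4b.
Tuba1b: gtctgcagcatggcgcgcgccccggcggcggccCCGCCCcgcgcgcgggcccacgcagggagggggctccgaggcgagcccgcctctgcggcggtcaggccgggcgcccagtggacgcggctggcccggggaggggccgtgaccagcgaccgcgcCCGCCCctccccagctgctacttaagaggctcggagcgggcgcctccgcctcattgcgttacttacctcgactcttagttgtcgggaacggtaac
Tuba8: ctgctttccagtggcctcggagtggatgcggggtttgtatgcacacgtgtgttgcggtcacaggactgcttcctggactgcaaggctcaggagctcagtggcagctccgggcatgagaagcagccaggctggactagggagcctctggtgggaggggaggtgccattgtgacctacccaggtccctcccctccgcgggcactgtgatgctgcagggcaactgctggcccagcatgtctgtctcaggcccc
Tubb2a: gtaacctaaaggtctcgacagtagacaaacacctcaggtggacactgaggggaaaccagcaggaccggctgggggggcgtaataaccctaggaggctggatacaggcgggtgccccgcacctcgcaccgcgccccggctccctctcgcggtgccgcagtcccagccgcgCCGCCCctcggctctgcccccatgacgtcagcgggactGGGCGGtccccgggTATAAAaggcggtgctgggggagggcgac
Tubb4b: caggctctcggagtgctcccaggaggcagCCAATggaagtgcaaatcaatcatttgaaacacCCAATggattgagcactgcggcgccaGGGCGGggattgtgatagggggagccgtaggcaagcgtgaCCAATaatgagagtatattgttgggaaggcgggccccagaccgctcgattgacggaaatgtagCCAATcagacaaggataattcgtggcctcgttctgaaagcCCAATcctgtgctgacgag
Tubb4b holds 5 copies of CCAAT, all on the strand of the gene, and 1 of GGGCGG. Tubb2a holds 2 copies of GGGCGG, on opposite strands, and 1 TATAAA whose first base lies 29 bases before the start. Tuba1b holds 2 copies of GGGCGG on the reverse strand, and Tuba8 holds none of these letters. Promoters of 8 members were in the table, Tuba4a included. CCAAT was in 4 of the 8, against 33.8% of all 32851 promoters of this length, GGGCGG was in 5, against 32.7%, and TATAAA was in 1, against 12.4%. A match of letters is a description of the window and shows no bound factor.

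In males, the Tuba1b probe set read higher in GPER KO than in intact cardiomyocyte preparations. Of the 13 tubulin probe sets, 1 was called in males, in the higher direction, at an adjusted p under 0.05 from limma over all 45141 probe sets, where 0.230% of all probe sets were called higher and 0.290% in either direction. In females 0 of 13 were called, where 0.122% of all probe sets were called, and 2 of 13 had an unadjusted p under 0.05, both of Tuba8 and both lower, where 10.8% of all probe sets had one. In males 5 of 13 had an unadjusted p under 0.05, where 8.49% of all probe sets had one. In males 11 of the 13 probe sets lay above 0, with a median of 0.17, where 52.3% of all probe sets lay above 0 with a median of 0.0049. In females 5 of 13 lay above 0, with a median of -0.01, where 45.3% of all lay above 0 with a median of -0.01. With the brightest probe set for each gene, 8 of 8 tubulin genes lay above 0 in males, with a median of 0.33, and 3 of 8 in females, with a median of -0.0044. All 17097 genes measured this way had medians of 0.01 in males and -0.02 in females.

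**Figure D1:**
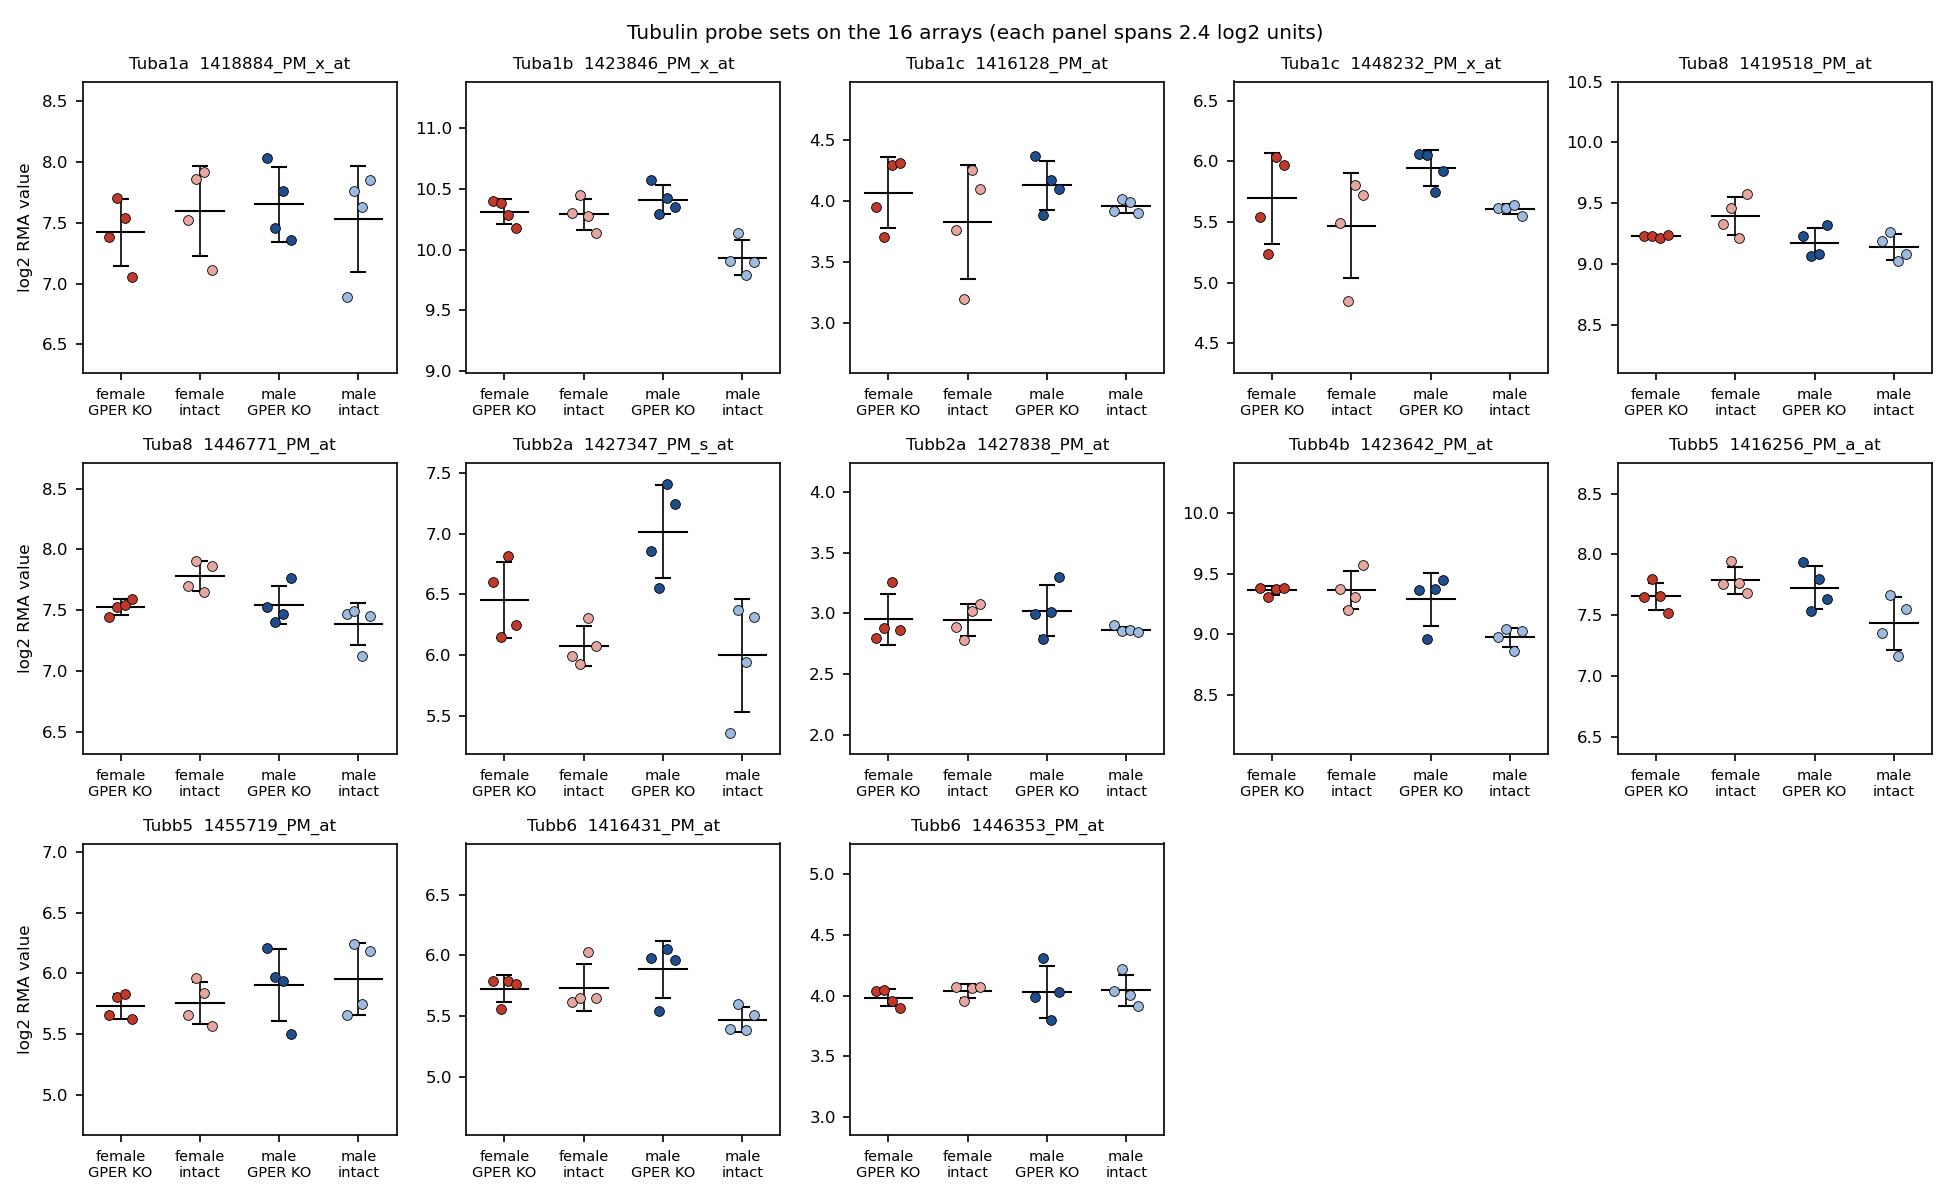
Log2 RMA values (vertical axis) of the 13 tubulin probe sets, with 1 point per mouse, a long line at the group mean and bars of 1 SD (n = 4); every panel spans the same height. For Tuba1b the 4 male GPER KO points lie at 10.3 to 10.58 and the 4 male intact points at 9.79 to 10.13, while the female groups overlap.

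Tuba1b encodes an alpha tubulin made in most cell types. In males its log2 values were 10.58, 10.30, 10.43 and 10.35 in GPER KO mice 431, 432, 444 and 451, against 9.91, 10.13, 9.79 and 9.90 in intact mice 430, 433, 452 and 453. All 4 GPER KO males were above all 4 intact males. In females the values were 10.40, 10.39, 10.29 and 10.18 in GPER KO mice 417, 419, 426 and 427, against 10.30, 10.45, 10.27 and 10.14 in intact mice 418, 421, 422 and 425, and the groups overlapped. The male difference was 0.48 with a standard error of 0.08 (adjusted p = 0.0203), a 1.39-fold level, and the female one was 0.02 with the same standard error (adjusted p = 0.951). The male minus female difference of these effects was 0.46 with a standard error of 0.12 (unadjusted p = 0.00153, adjusted p = 0.463), so it did not pass. The male groups of 3 of the 13 probe sets did not overlap with GPER KO above, those of Tuba1b, the brighter Tubb2a set and Tuba1c 1448232_PM_x_at, where 3.26% of all probe sets did so, and 0 of 13 with GPER KO below, where 2.03% did.

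The Tuba1b call in males held in 19 of the 25 alternatives. It did not pass with male arrays alone (0.48, adjusted p = 0.0847), nor without GPER KO 431 (0.42, adjusted p = 0.0849), GPER KO 444 (0.48, adjusted p = 0.0519), intact 430 (0.47, adjusted p = 0.0762), intact 452 (0.43, adjusted p = 0.0903) or intact 453 (0.47, adjusted p = 0.0573). Over all arrays left out in turn, the difference of Tuba1b stayed between 0.42 and 0.55.

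The other alpha tubulins did not pass in either sex. Tuba1a, the main alpha tubulin of developing neurons, averaged 7.65 ± 0.31 in GPER KO and 7.53 ± 0.44 in intact males, and 7.42 ± 0.28 in GPER KO and 7.60 ± 0.37 in intact females (SD, n = 4 each). Its differences, 0.12 in males (adjusted p = 0.934) and -0.18 in females (adjusted p = 0.827), were smaller than the spread between mice, and the value without male intact 430, the lowest of its group at 6.89, was -0.09. Tuba1c, a widely expressed alpha tubulin, has 2 probe sets. In males 1448232_PM_x_at read 6.06, 6.05, 5.74 and 5.92 in GPER KO, against 5.62, 5.61, 5.64 and 5.55 in intact mice. All GPER KO males were above the intact ones, but the margin was narrow, and the difference was 0.34 with a standard error of 0.19 (adjusted p = 0.670). In females it was 5.54, 5.24, 6.03 and 5.97 in GPER KO against 5.49, 4.85, 5.81 and 5.72 in intact mice, which overlapped (0.23, adjusted p = 0.705). The other set, 1416128_PM_at, differed by 0.17 in males (adjusted p = 0.865) and 0.24 in females (adjusted p = 0.690), with overlapping groups in both sexes. Its intact female 421 read 3.20, the lowest of the 16 mice, as it was for 1448232_PM_x_at.

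Tuba8 encodes an alpha tubulin found mainly in striated muscle, testis and brain. On 1446771_PM_at the females read 7.44, 7.53, 7.54 and 7.59 in GPER KO, against 7.70, 7.91, 7.65 and 7.86 in intact mice. All GPER KO females were below all intact females. The difference was -0.25 with a standard error of 0.09 (unadjusted p = 0.0134, adjusted p = 0.336), which did not pass. Female groups lay apart with GPER KO below for 1 of the 13 probe sets, this one, where 2.98% of all probe sets did so, and with GPER KO above for 0 of 13, where 1.85% did. In males the same set read 7.53, 7.40, 7.47 and 7.77 in GPER KO and 7.47, 7.49, 7.12 and 7.45 in intact mice, with overlap (0.16, adjusted p = 0.701). The male minus female difference of the effects was 0.41 with a standard error of 0.13 (unadjusted p = 0.00593, adjusted p = 0.463). The other Tuba8 set, 1419518_PM_at, averaged 9.23 ± 0.01 in GPER KO and 9.40 ± 0.16 in intact females, and 9.17 ± 0.12 in GPER KO and 9.14 ± 0.10 in intact males (SD, n = 4 each). It differed by -0.17 in females (adjusted p = 0.455), with GPER KO mice at 9.210 to 9.238 and intact mice at 9.214 to 9.576, so that the groups overlapped. In males it differed by 0.03 (adjusted p = 0.949).

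Among beta tubulins, Tubb2a had the widest differences. It encodes a beta tubulin abundant in neurons and present in many other cells. On 1427347_PM_s_at the males read 6.86, 6.55, 7.41 and 7.24 in GPER KO mice 431, 432, 444 and 451, against 5.36, 6.37, 5.94 and 6.31 in intact mice 430, 433, 452 and 453. All 4 GPER KO males were above the intact males, though GPER KO 432 exceeded intact 433 by little. In females the values were 6.61, 6.15, 6.82 and 6.25 in GPER KO, against 5.99, 5.93, 6.31 and 6.07 in intact mice, and the groups overlapped through intact 422. The male difference was 1.02 with a standard error of 0.22, a 2.03-fold level (95% confidence interval 0.56 to 1.48 in log2, adjusted p = 0.0649), and did not pass over all probe sets. With the brightest probe set for each gene and adjustment over genes it passed (adjusted p = 0.0414), as it did with a filter on low values (adjusted p = 0.0486). The male difference passed in 3 of the 25 alternatives. Over all 25 it was 0.59 to 1.17, with adjusted p up to 0.183. The female difference was 0.38 with a standard error of 0.22 (adjusted p = 0.562).

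Over the mean of both sexes Tubb2a 1427347_PM_s_at rose by 0.70 with a standard error of 0.15, a 1.62-fold level (adjusted p = 0.0444). It was the 1 of 13 tubulin probe sets called there, where 0.817% of all probe sets were called in either direction and 0.487% higher. The call was near the threshold: without the intact females 421 and 422 the difference was 0.72 (adjusted p = 0.102), and it failed in 11 of the 16 fits that left out 1 array, with differences of 0.59 to 0.78 over all 16. Tuba1b had a mean difference of 0.25 (adjusted p = 0.0674). The other Tubb2a set, 1427838_PM_at, read 2.78 to 3.30 on all arrays, close to Gper1's low values, and differed by 0.16 in males (adjusted p = 0.749) and 0.01 in females (adjusted p = 0.984). The 2 sets of Tubb2a therefore gave different sizes, and their mean gave a male difference of 0.59.

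**Figure D2:**
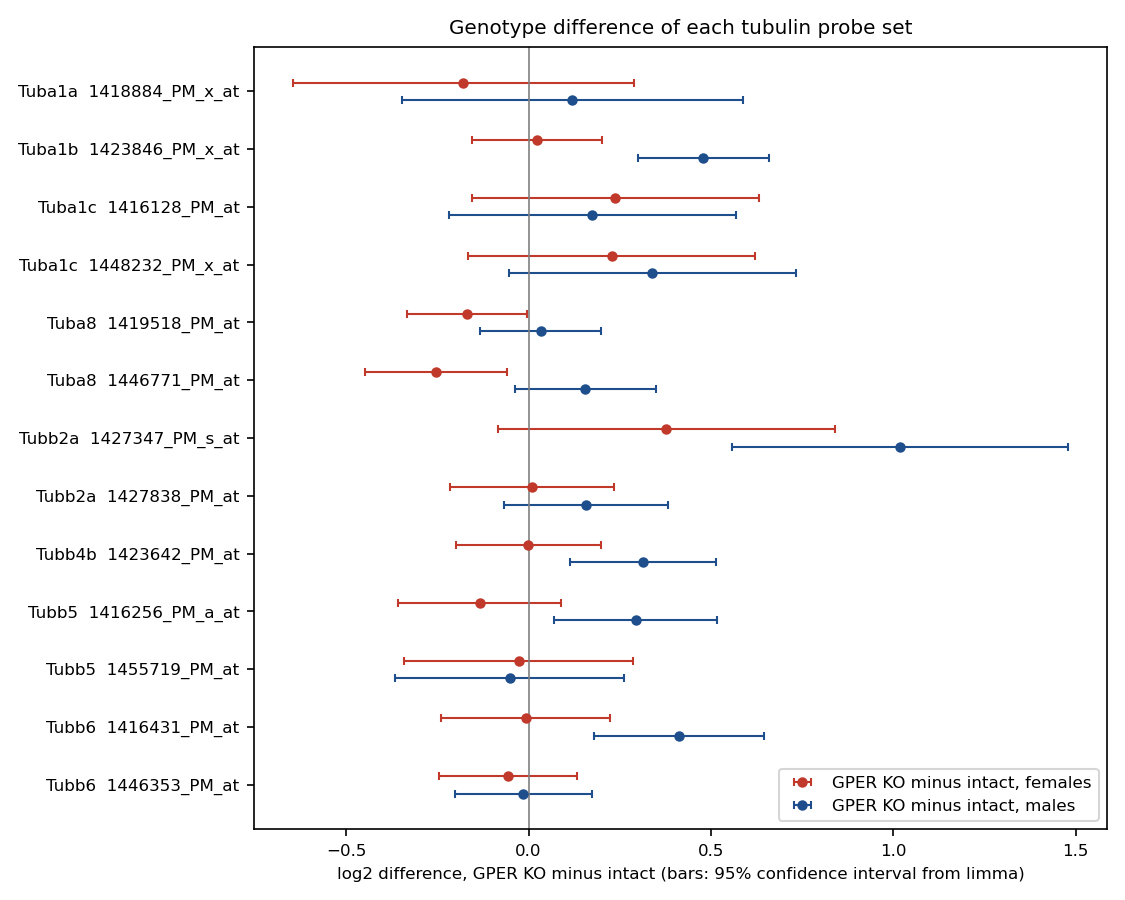
Log2 difference (horizontal axis), GPER KO minus intact, of each tubulin probe set in females and males, with 95% confidence intervals from limma. In males the intervals of Tuba1b (0.48), Tubb2a 1427347_PM_s_at (1.02), Tubb4b (0.31), Tubb5 1416256_PM_a_at (0.29) and Tubb6 1416431_PM_at (0.41) lie above 0, and in females both Tuba8 intervals lie below 0; the intervals are not adjusted, and 8.49% of all probe sets in males and 10.8% in females had an unadjusted p under 0.05.

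Tubb4b, a beta tubulin of most tissues and of cilia, has 1 probe set. In males it read 9.36, 8.96, 9.38 and 9.45 in GPER KO mice 431, 432, 444 and 451, against 8.97, 9.04, 8.86 and 9.02 in intact mice. GPER KO 431, 444 and 451 were above every intact male, and GPER KO 432 was within the intact range. The difference was 0.31 with a standard error of 0.09 (unadjusted p = 0.00419, adjusted p = 0.246). Without GPER KO 432, left out because each array was left out in turn, it was 0.42 (adjusted p = 0.0322). It passed in 1 of the 25 alternatives, this one. Over all arrays left out in turn the male difference was 0.26 to 0.42, with adjusted p up to 0.522. In females Tubb4b averaged 9.36 ± 0.04 in GPER KO and 9.36 ± 0.16 in intact mice (SD, n = 4 each).

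Tubb6 encodes a beta tubulin that is known to increase in regenerating and dystrophic muscle. On 1416431_PM_at the males read 5.98, 5.54, 6.06 and 5.96 in GPER KO, against 5.39, 5.60, 5.38 and 5.51 in intact mice. GPER KO 432 was again the low one, below intact 433, and the other GPER KO males were above all intact males. The difference was 0.41 with a standard error of 0.11 (unadjusted p = 0.00174, adjusted p = 0.164), and 0.53 without GPER KO 432 (adjusted p = 0.0342). It passed only there, in 1 of the 25 alternatives. Over all arrays left out in turn the difference was 0.36 to 0.53, with adjusted p up to 0.373. In females it was -0.01 (adjusted p = 0.986), with 5.56 to 5.79 in GPER KO and 5.62 to 6.02 in intact mice. The second set of Tubb6, 1446353_PM_at, read 3.80 to 4.31 on all arrays and differed by -0.02 in males (adjusted p = 0.982) and -0.06 in females (adjusted p = 0.871).

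Tubb5, also called Tubb, encodes a beta tubulin of nearly all cells. Its set 1416256_PM_a_at read 7.93, 7.53, 7.80 and 7.63 in GPER KO males, against 7.35, 7.66, 7.17 and 7.55 in intact males. The groups overlapped, with intact 433 above GPER KO 432 and 451. The difference was 0.29 with a standard error of 0.11 (unadjusted p = 0.0133, adjusted p = 0.384). In females it was -0.13 (adjusted p = 0.694), with 7.52 to 7.79 in GPER KO and 7.68 to 7.95 in intact mice. The other Tubb5 set, 1455719_PM_at, did not follow in males, with -0.05 (adjusted p = 0.958), and had -0.03 in females (adjusted p = 0.967).

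Whether the genotype difference itself differed between the sexes was tested for every probe set. Male minus female effects lay above 0 for 11 of 13 tubulin probe sets, with a median of 0.30 where all probe sets had 0.02. None of the 13 passed, and of all 45141 probe sets 0.00% passed, with a lowest adjusted p of 0.431 anywhere on the array. By unadjusted p under 0.05, 5 of the 13 qualified, against 4547 (10.1%) of all probe sets. They were those of Tuba1b, Tuba8 1446771_PM_at, Tubb4b (0.31), Tubb5 1416256_PM_a_at (0.43) and Tubb6 1416431_PM_at (0.42). A difference between the sexes in the response of tubulin genes is therefore not shown.

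Among intact mice, males were set against females. None of the 13 tubulin probe sets passed, where 0.246% of all probe sets did. An unadjusted p under 0.05 was found for 6 of the 13, all lower in males, and for 7112 (15.8%) of all probe sets. Tubb4b was 8.97 ± 0.08 in intact males and 9.36 ± 0.16 in intact females, a difference of -0.39 (adjusted p = 0.0755). For Tuba1b the means were 9.93 ± 0.14 in intact males and 10.29 ± 0.13 in intact females, a difference of -0.36 (adjusted p = 0.0711). Tuba8 1446771_PM_at was 7.38 ± 0.17 in intact males and 7.78 ± 0.12 in intact females, a difference of -0.39 (adjusted p = 0.0671, SD and n = 4 in each group). Tuba8 1419518_PM_at (-0.26), Tubb5 1416256_PM_a_at (-0.36) and Tubb6 1416431_PM_at (-0.26) had adjusted p between 0.125 and 0.259. This comparison and the genotype comparison in males share the 4 intact males, whose values enter both. For Tuba1b and Tubb4b the intact males had the lowest mean of the 4 groups. Intact males were also lowest for both Tuba8 sets, both Tubb2a sets, Tubb5 1416256_PM_a_at and Tubb6 1416431_PM_at. The remaining sets had another group lowest. GPER KO males had the highest mean for Tuba1b (10.41 ± 0.12) and Tubb2a 1427347_PM_s_at (7.02 ± 0.38), among others. For that Tubb2a set, intact males (5.997 ± 0.463) and intact females (6.08 ± 0.17) differed by -0.08.

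Within groups, the tubulin probe sets did not all move together from mouse to mouse. Deviations from the 4 group means were correlated over the 16 arrays, as a description in which points share an array and related probes. The 2 sets of Tuba1c had r = 0.886 and those of Tuba8 r = 0.808. Tuba1b and Tubb5 1416256_PM_a_at had r = 0.878, and Tubb2a 1427347_PM_s_at and Tubb6 1416431_PM_at had r = 0.715. Tuba1b and Tuba1c 1448232_PM_x_at had r = -0.518, the lowest of the 78 pairs, while Tuba1a and Tuba1b, the closest neighbours on chromosome 15, had r = 0.594. For the tubulin set with the widest spread, Tubb2a 1427347_PM_s_at, the 5 genes with the most similar deviations were Cab39l, an adaptor of the LKB1 kinase (r = 0.894), Selenov, a selenoprotein (r = 0.847), Lgals3bp, a secreted galectin-3 ligand (r = 0.839), Cyp8b1, a bile acid hydroxylase (r = 0.821), and Tdg, a DNA glycosylase (r = 0.819). With group differences kept in, r was 0.799 for Lgals3bp and 0.306 to 0.495 for the other 4. Selenov and Cyp8b1 had mean log2 values of 3.21 and 3.10, near the low end of the scale. These 5 were picked for the highest r of 17097 genes over 16 arrays, and their r was not tested.

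Genes whose products make, modify and use tubulin were taken from lists. No called gene was found among 7 other tubulin genes, where Tubg1, the gamma tubulin that seeds microtubules, had 0.36 in males (adjusted p = 0.173). Of 22 genes of tubulin folding, the CCT chaperonin, prefoldin and the tubulin cofactors, 18 lay above 0 in males with a median of 0.09, and 10 in females with a median of -0.01. None of them passed. Tbcb, a cofactor that handles alpha tubulin, had 0.28 in males (adjusted p = 0.174) and -0.0028 in females (adjusted p = 0.993), and Cct3, a subunit of the chaperonin, had 0.20 in males (adjusted p = 0.433). Of the autoregulation factors, Ttc5, which recognizes nascent tubulin, had 0.01 in males (adjusted p = 0.979) and -0.07 in females (adjusted p = 0.702). Scaper, which links Ttc5 to mRNA decay, had -0.01 in males (adjusted p = 0.992) and 0.36 in females (adjusted p = 0.273).

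Among 24 measured genes of tubulin modification, 1 passed in each sex. Ttll1, a glutamylase that adds glutamate chains to tubulin tails, fell by 0.62 in GPER KO females (standard error 0.09, adjusted p = 0.0138) and by 0.71 in GPER KO males (standard error 0.09, adjusted p = 0.00263). The measured genes of the tyrosine cycle did not pass. Ttl, which puts tyrosine back, had 0.07 in males (adjusted p = 0.860) and -0.07 in females (adjusted p = 0.797). Svbp, the partner of the vasohibins that remove it, had 0.14 in males (adjusted p = 0.533) and -0.16 in females (adjusted p = 0.379). Vash1, a vasohibin gene, and Matcap1 were on the list but not measured, so the removal of tyrosine is covered only in part. The acetylase gene Atat1 had 0.16 in males (adjusted p = 0.427) and 0.01 in females (adjusted p = 0.958). Of the 24 genes, 17 lay above 0 in males, with a median of 0.03, and 7 in females, with a median of -0.05.

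Proteins that bind, cut or travel on microtubules showed no call by genotype in either sex. Of 27 microtubule-binding genes, 15 lay above 0 in males and 18 in females. Mtus2, a protein of microtubule tips, had 0.39 in males (adjusted p = 0.119) and 0.02 in females (adjusted p = 0.953), and it was lower in intact males than in intact females by a male minus female difference of -0.53 (adjusted p = 0.0333). Mapre2, an end-binding protein, had 0.20 in males (adjusted p = 0.239), and Map4, a microtubule-stabilizing protein of most tissues, had -0.27 in males (adjusted p = 0.702) and 0.27 in females (adjusted p = 0.572). Of 13 severing and destabilizing genes, 8 lay above 0 in males and 5 in females, among them Spast with 0.22 (adjusted p = 0.281) and Stmn1 with 0.41 (adjusted p = 0.660) in males. Of 27 motor genes, 15 lay above 0 in males and 14 in females. Kif5b, a kinesin heavy chain, had 0.67 in females (adjusted p = 0.299), and Dctn2, a dynactin subunit, had 0.21 in males (adjusted p = 0.239).

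The other filament systems and stress genes were read beside the tubulins. Of 21 actin and intermediate filament genes, 0 passed within a sex and 2 rose over the mean of both sexes: Des, which encodes desmin (0.25, adjusted p = 0.0332), and Pfn1, which encodes the actin-binding profilin 1 (0.26, adjusted p = 0.0347). Of 13 cardiac stress genes, Ankrd1, an ankyrin repeat protein of the sarcomere, rose by 1.15 in GPER KO females (adjusted p = 0.000585) and by 0.72 in GPER KO males (adjusted p = 0.0194). Nppa, which encodes atrial natriuretic peptide, rose in males (1.41, adjusted p = 0.0150). In females Nppa also lay above 0 but did not pass, and Ankrd1 was the 1 gene of the list called there. Male minus female effects of the 13 genes were at most 0.23, and 0 passed. Over the mean of both sexes 4 of the 13 rose: Ankrd1 (0.94, adjusted p = 5.2e-05), Nppa (1.29, adjusted p = 0.000955), Nppb (0.91, adjusted p = 0.00498) and Ccn2 (0.83, adjusted p = 0.0136). The median of the list was 0.16 in males and 0.06 in females.

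**Figure D3:**
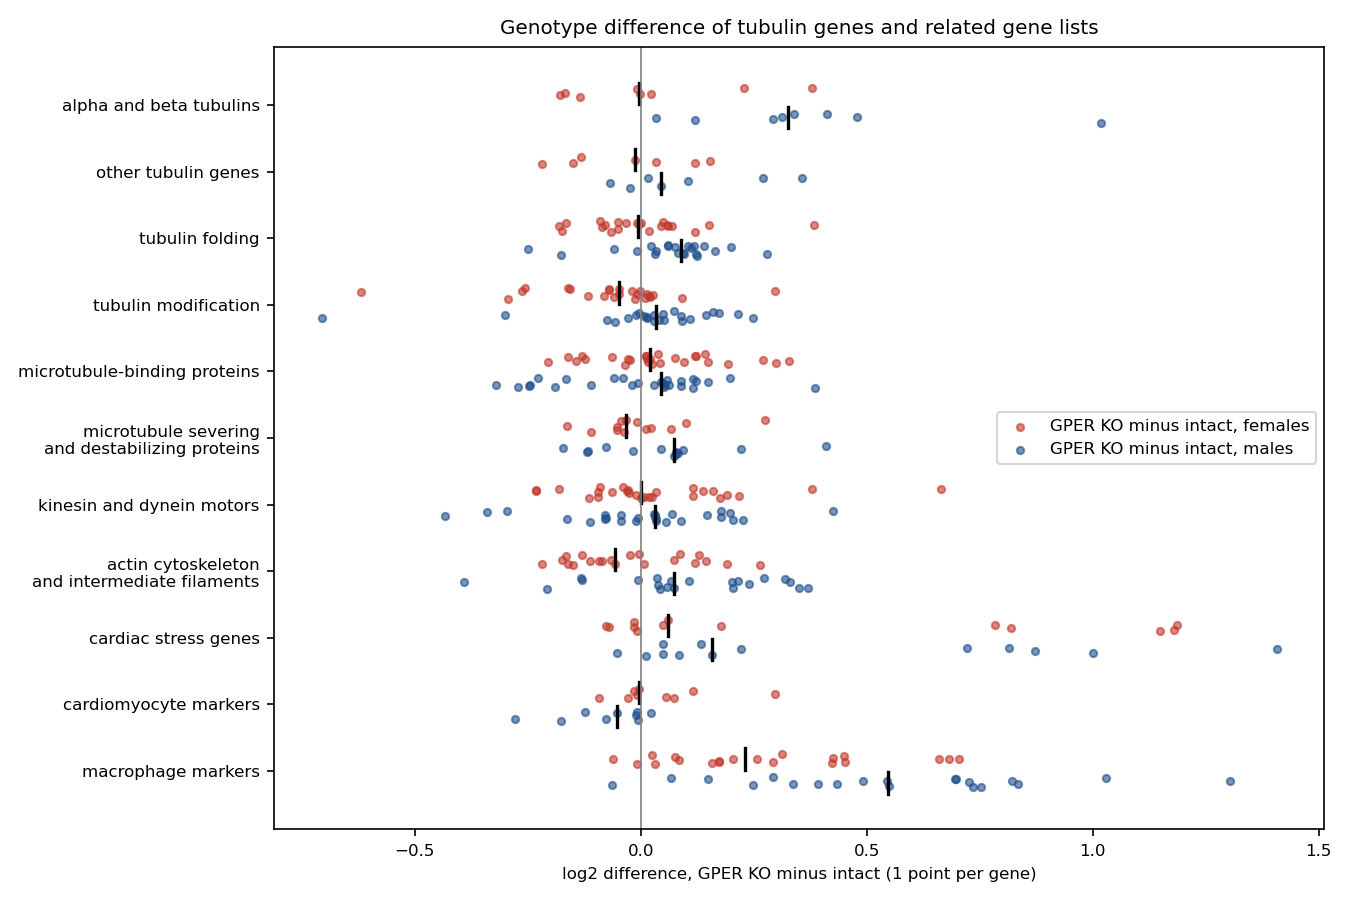
Log2 difference (horizontal axis), GPER KO minus intact, with 1 point per gene (brightest probe set) for the tubulins and related lists, females above males in each row, and a short line at the median of each list. The 8 tubulin genes have a median of 0.33 in males and -0.0044 in females; the macrophage markers have 0.55 in males and 0.23 in females.

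Markers of other cells moved with genotype too. Of 20 macrophage markers, 19 lay above 0 in males, of which 3 passed (Mpeg1, Cd68 and Lyz2), and 18 lay above 0 in females, of which 0 passed. Their summed linear signal was 1268, 1149, 1371 and 761 in GPER KO males 431, 432, 444 and 451, against 558, 616, 608 and 856 in intact males 430, 433, 452 and 453. In females it was 667 to 836 in GPER KO and 496 to 617 in intact mice. Over the mean of both sexes, where Tubb2a was called, 20 of 20 macrophage markers lay above 0, with a median of 0.41, and 5 passed. Macrophages also express tubulin genes, and the part of these cells in the tubulin differences was not tested.

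The 4 measured atrial markers, none of which passed, had a median of 0.57 in males, with 2 of 4 above 0, and -0.61 in females, with 0 of 4 above 0, so their medians differed in sign between the sexes. The male minus female effect lay above 0 for 4 of 4, with a median of 1.15. Their summed signal was 528 to 2251 in GPER KO males and 251 to 1307 in intact males, and 180 to 1137 in GPER KO females and 352 to 1418 in intact females. Nppa, which lay above 0 in males and in females, is also expressed strongly in atria. The part of atrial cells in the tubulin values was not tested.

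All 15 endothelial markers lay below 0 in both sexes and none passed, with medians of -0.33 in males and -0.26 in females. Of 12 fibroblast markers, 8 lay above 0 in males and 10 in females, and none passed. The 11 measured proliferation markers had mean log2 values of 2.83 to 2.97 on all arrays, near the low end of the scale, and their median difference was 0.02 in males and -0.02 in females. Cardiomyocyte markers summed to 46580 to 47839 in GPER KO males and 47635 to 50455 in intact males, and to 47214 to 49154 in GPER KO females and 46327 to 48626 in intact females. Summed nerve and Schwann cell markers were 90 to 95 in GPER KO and 88 to 99 in intact males, and lymphocyte markers were 159 to 170 in GPER KO and 157 to 163 in intact males. The part of these cells in the tubulin values was not tested. The sources do not say whether mice of a group shared a litter or a day. The p-values measure the spread between these mice, and shared handling could not be checked. Female mice are numbered 417 to 427 and male mice 430 to 453. Sex therefore goes with the number series, and anything that went with the series cannot be told apart from sex.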

How the data were processed

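The authors hybridised labelled RNA from cardiomyocytes of 16 mice to 1 array each and deposited log2 values per probe set. RMA and Partek are the tools in their processing notes, without versions. Scanner signals were not used here, so background correction, normalization and probe summary were not repeated. Gene names came from the platform annotation (28898 with 1 gene, 551 with several, 15692 with none), with 28689 symbols updated to the RefSeq table of GRCm38.p6. All 45141 probe sets were fitted in R 4.3.3 with limma 3.58.1 (4 group means, contrasts, eBayes, no filter), with Benjamini-Hochberg adjustment over all of them and a threshold of 0.05. The precision is limited by 4 arrays per group. On simulated data of the male comparison over 45141 probe sets, 73% of changes of 0.5 and 96% of changes of 1 were called, with 10 false calls, and in the female comparison 72% and 97%, with 6 false calls. The changed probe sets were drawn at random from the whole array, with independent normal noise. These shares therefore need not hold for the tubulin probe sets, whose standard errors in males ran from 0.08 to 0.22. The tubulin genes and all gene lists were chosen with earlier results of these data known. All member probe sets are named. From each list up to 3 called genes per direction, or the 2 with the smallest p, could be named, and of these some were left out for brevity. Tnnt2, Myl2, Actn2, Ttl, Svbp, Atat1, Map4, Ttc5, the unmeasured Vash1 and Matcap1, and values in the other sex were added by role. The alternatives were the brightest or the mean probe set of a gene, a filter keeping 28480 probe sets above the 40 percentile on at least 4 arrays, repeated quantile normalization, median centring, array weights, eBayes with trend and robust settings, 1 sex alone and each array left out. Leaving out intact females 421 and 422 together was chosen after seeing the data. Figures were drawn with Python 3.11.15 and matplotlib 3.10.9.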

Additional observations from a re-analysis of the deposited data

Results flagged for a closer look

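In 5 of the 52 groups of 4 mice examined (13 probe sets in 4 groups), 1 mouse lay apart from its group by Dixon's criterion (a gap to the nearest mouse, over the group's range, above the 95% critical value for 4 samples). Chance flags about 1 in 20 groups. The Tuba8 1446771_PM_at value of male intact 452 was 7.125, against 7.45 to 7.495 in the others of its group. For Tubb4b, female GPER KO 419 read 9.308, against 9.376 to 9.38. For Tubb6 1416431_PM_at, female GPER KO 419 read 5.561 against 5.764 to 5.79, and female intact 422 read 6.024 against 5.615 to 5.651. For Tubb6 1446353_PM_at, female intact 421 read 3.953, against 4.061 to 4.076. No group of Tuba1b or Tubb2a, the genes with calls, had a mouse apart by this criterion. Even so, the male Tuba1b call and the Tubb2a call over both sexes each failed when certain single arrays were left out.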

How the results depend on the processing

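No tubulin probe set was called in females, or for the difference between the sexes, under any alternative. In males 1 was called, 2 with the brightest probe set per gene and with the filter on low values (Tuba1b and Tubb2a), and 0 with male arrays alone. Leaving out 1 array gave 0 to 4 calls: 4 without GPER KO 432 (Tuba1b, Tubb2a, Tubb4b, Tubb6) and 0 without GPER KO 431 or 444 or intact 430, 452 or 453. The share of all probe sets called under each alternative is not given here. Changes in the counts of this paragraph therefore cannot be read as particular to tubulins. Over the mean of both sexes 1 was called, 2 with repeated quantile normalization and 0 without intact females 421 and 422, with 0 to 2 when leaving out 1 array. With probe sets averaged within each gene, and with trend and robust settings, the 1 call was Tuba1b (adjusted p = 0.0470 and 0.0480) in place of Tubb2a (0.0726 and 0.0704). Among intact mice 0 were called, 1 with repeated quantile normalization (Tuba8 1446771_PM_at, adjusted p = 0.0435), and 0 to 1 when leaving out 1 array (Tuba1b without female intact 425, Tubb4b without male GPER KO 432).

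Signs turned only for differences that did not pass. In females Tubb4b was 0.0161 with repeated quantile normalization and 0.0047 with array weights, and Tubb6 1416431_PM_at was 0.0241 with array weights. In males Tubb6 1446353_PM_at was 0.0098 with array weights. Without intact females 421 and 422 the female differences were 0.1062 for Tuba1a, -0.0326 for Tubb2a 1427838_PM_at, 0.1156 for Tubb5 1455719_PM_at and 0.0924 for Tubb6 1416431_PM_at. Leaving out 1 array gave, in females, -0.0273 to 0.0751 for Tuba1b, -0.0933 to 0.0589 for Tubb2a 1427838_PM_at, -0.0554 to 0.0680 for Tubb4b, -0.0905 to 0.0404 for Tubb5 1455719_PM_at and -0.0478 to 0.0886 for Tubb6 1416431_PM_at. In males it gave -0.0940 to 0.2250 for Tuba1a, -0.0152 to 0.0738 for Tuba8 1419518_PM_at, -0.1540 to 0.0838 for Tubb5 1455719_PM_at and -0.1081 to 0.0631 for Tubb6 1446353_PM_at. The cause was not tested. In all, 754 of the values under alternatives kept direction and side of the threshold. No paired analysis was possible because each mouse has its own number and the sources give no litter or day to pair on. Low signal limits Tubb2a 1427838_PM_at, which the filter on low values removed.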
